A study of Mus musculus with 5 samples.

Results

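Beta cells are the islet cells that make and secrete insulin, and single-cell studies often divide them into several clusters by their RNA. Cluster 3 is 1 of 6 numbered beta clusters in single-cell RNA data from mouse pancreatic islets. Its members are all cells whose deposited cluster number is 3, and it holds 1962 of 18221 cells and 1962 of 11607 beta cells. All 1962 carry the deposited label beta, and it is the second largest beta cluster. Ins1 and Ins2, the mouse insulin genes that define beta cells, could not be used to check the label, because expression per gene was not analysed here.

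The study compared islets of mice with and without ATF6α in beta cells under a normal or a fat-rich diet. ATF6α is a sensor of the endoplasmic reticulum. When misfolded protein builds up, it moves to the Golgi, is cut there, and its freed part switches on genes for chaperones and protein disposal. Beta cells fold large amounts of proinsulin and depend on such responses. Control mice were Atf6afl/fl, listed without Cre. Knockout mice (cKO, also named ATF6αβKO) were RIP-Cre;Atf6afl/fl, in which the insulin promoter of the rat drives Cre, mainly in beta cells. Loss of ATF6α and presence of RIP-Cre cannot be told apart in this design. The loss itself was not checked, since expression per gene was not analysed here. The diets were a normal diet (ND, 10% of energy as fat) and a high-fat diet (HFD, 60%), begun at 6 weeks of age, and islets were isolated at 22 weeks. Each library pooled the islets of 2 mice. Alpha cells, which come next to cluster 3 in these data, secrete glucagon, and PP cells secrete pancreatic polypeptide.

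There were 5 libraries in 4 groups: control ND (7998 cells), control HFD (6667 cells), cKO HFD (2483 cells), and 2 cKO ND libraries, of batch 1 (40 cells) and batch 2 (1033 cells). The other 3 libraries were of batch 1. The 40-cell library stood apart, and its cells carried the same identifier suffix as those of the batch 2 library. Across libraries 140 cell barcodes occurred in 2 libraries each. Of the cluster 3 cells, 34 had such a barcode, and 1 barcode named a cluster 3 cell in both of its libraries. Sequencing depth is unknown, so the cell number limits the precision. Intervals below are exact 95% binomial intervals and cover counting error only, not differences between mice or preparations.

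Most cluster 3 cells came from islets of HFD mice. The HFD libraries supplied 1734 cells (88.4%) and ND libraries 228 (11.6%), whereas control mice supplied 1026 (52.3%) and cKO mice 936 (47.7%). The libraries differ in size, so shares were taken over each library's beta cells. Cluster 3 was 3.88% of beta cells (171 of 4406, 3.33 to 4.49%) in the control ND library. In the control HFD library it was 17.7% (855 of 4841, 16.6 to 18.8%). In the cKO HFD library it was 42.0% (879 of 2093, 39.9 to 44.1%), the highest share of the 5 libraries. The cKO ND libraries gave 24.2% in batch 2 (57 of 236, 18.8 to 30.1%) and 0 of 31 beta cells in batch 1, which allows a share of up to 9.68% at the limit of 3 cells (exact upper limit 11.2%). Their mean was 12.1% ± 17.1 (SD, n = 2). The SD exceeds the mean, so the sole replicate pair does not fix the cKO share on ND.

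**Figure D1:**
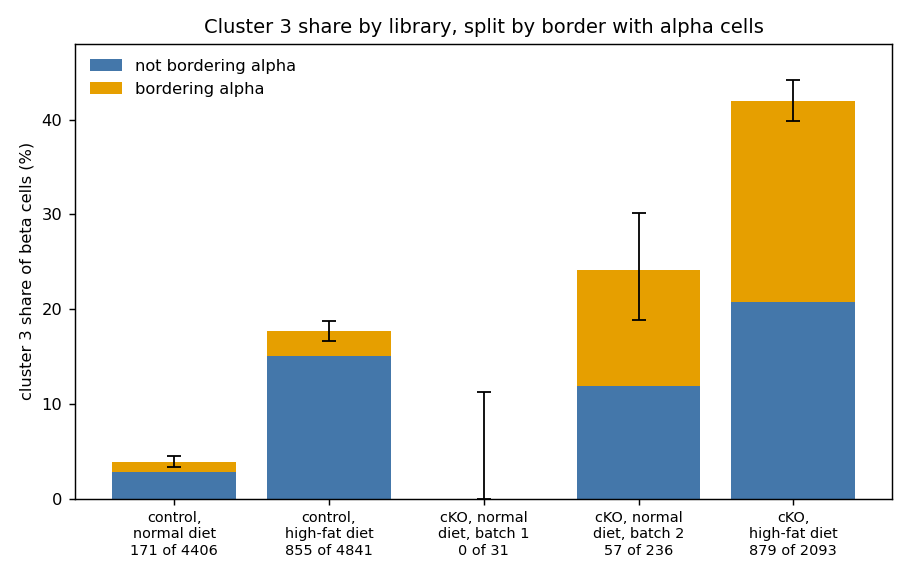
Cluster 3 as a percentage of all beta cells in each of the 5 libraries (bars, axis from 0), with the number of cells under each bar. Orange marks cluster 3 cells with at least 3 alpha cells among their 30 nearest cells, blue marks the rest, and the black lines are exact 95% binomial intervals of the whole share. The share runs from 0 of 31 cells to 42.0%, and the orange portion is 21.3% of beta cells in the cKO HFD library against 2.62% in the control HFD library.

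Diet in control mice went with a 4.55-fold higher cluster 3 share (log2 ratio 2.19, 95% counting interval 1.96 to 2.42). On the HFD the cKO share was 2.38-fold the control share (log2 ratio 1.25, 1.14 to 1.36), with both libraries of batch 1. On normal diet the cKO mean lay above the control by a log2 ratio of 1.64. The batch 2 library alone lay above it by 2.64 (2.25 to 3.03), where genotype and batch cannot be told apart. With 0 of 31 cells the batch 1 library gave no ratio, and at its 3-cell limit the ratio would be 1.32 (-0.25 to 2.88). Against the cKO ND mean the cKO HFD share was higher by a log2 ratio of 1.80, and against batch 2 alone by 0.80 (0.46 to 1.13). Against batch 1 at its 3-cell limit the ratio was 2.12 (0.56 to 3.67). The batch 2 share and that limit differed by a log2 ratio of 1.32. Since 0 of 31 cells does not fix the batch 1 share, the gap between the 2 replicates has no firm size, and neither the genotype difference on HFD nor the diet difference in controls can be judged against it. Over all cells in place of beta cells, the shares were 2.14% in the control ND, 12.8% in the control HFD, 5.52% in the batch 2 cKO ND and 35.4% in the cKO HFD library. The log2 ratio of the cKO ND mean to the control then fell to 0.37, and that of cKO HFD to the cKO ND mean rose to 3.68. Beta cells were 236 of 1033 cells in batch 2 and 4406 of 7998 in the control ND library.

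Over all 5 libraries the mean share was 22.0% in the 3 cKO and 10.8% in the 2 control libraries (two-sided exact permutation p = 0.60). It was 29.8% in the 2 HFD and 9.34% in the 3 ND libraries (two-sided exact permutation p = 0.40). The two-sided p doubles the smaller tail, so with 10 possible splits it cannot fall below 0.2. The cKO ND library of batch 2 lay above both controls. That of batch 1, with an exact upper limit of 11.2%, lay below the control HFD library and cannot be placed against the control ND library. As a share of beta cells, neither genotype nor diet separated the 5 libraries. Without the batch 1 cKO ND library, both cKO libraries lay above both controls (two-sided exact permutation p = 0.33, the smallest possible there). For diet that setting gave a two-sided exact permutation p of 0.67. Over all cells, both HFD libraries (12.8% and 35.4%) lay above the ND libraries (2.14%, 5.52% and 0 of 40 cells). The two-sided exact permutation p for diet was then 0.20. Genotype did not separate the libraries over all cells.

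In the deposited 2-dimensional UMAP embedding, in which cells with similar RNA are drawn close together, cluster 3 formed a crescent on the right side. When cells within 0.5 embedding units were joined, 1892 of its 1962 cells (96.4%) made 1 connected group, and no other group held 20 cells. The largest group held between 93.0% and 98.1% of the cluster 3 cells of each library. The long axis of the cluster carried 74.2% of its positional variance and ran from the lower edge, under beta cluster 1, past beta cluster 7, to the upper right, among alpha cells. Distances in such an embedding are not distances in expression. Embedding and cluster numbers come from the same cells, so positions are given as a description without a test over cells.

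**Figure D2:**
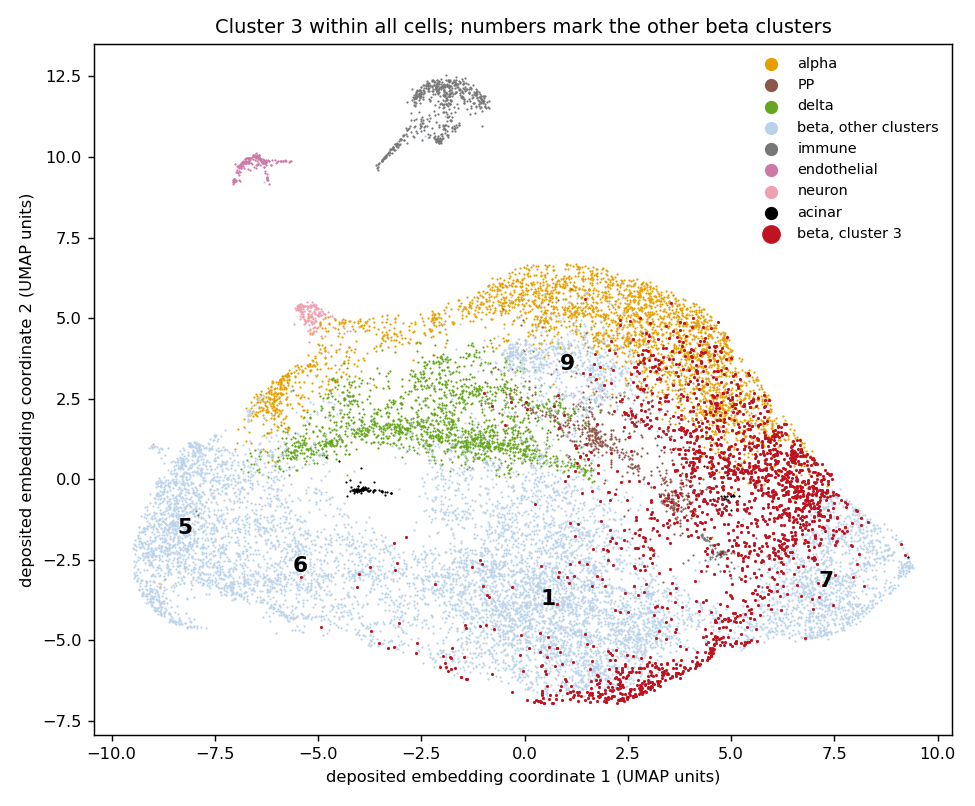
All 18221 cells in the deposited UMAP embedding (both axes in UMAP units), coloured by deposited cell type, with cluster 3 in red and the other beta clusters in pale blue, numbered 1, 5, 6, 7 and 9. Cluster 3 reaches from the lower edge of beta cluster 1, past cluster 7, into the alpha cells at the upper right.

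The surroundings of each cluster 3 cell were read from its 30 nearest cells of any type. On average 53.6% of these were cluster 3 cells, 23.0% cells of other beta clusters, 15.6% alpha cells and 5.0% PP cells. Among the other beta clusters, cluster 1 supplied 12.2% and cluster 7 supplied 9.03%, against 1.05% from cluster 9 and 0.703% from cluster 6. A cell was said to border a class when at least 3 of its 30 nearest cells belonged to it. By this rule 648 of 1962 cells (33.0%) bordered alpha cells, 273 (13.9%) PP cells and 862 (43.9%) another beta cluster. Beta cluster 1 was bordered by 466 cells (23.8%), cluster 7 by 355 (18.1%), cluster 9 by 60 (3.06%), cluster 6 by 16 (0.815%) and cluster 5 by none of the 1962 cells. Interior cells, with at least 27 of 30 nearest cells in cluster 3, numbered 311 (15.9%).

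The alpha side and the beta side of the cluster hardly met. Of the 648 cells bordering alpha cells, 37 also bordered another beta cluster, and 54 also bordered PP cells. All 648 bordered alpha cluster 2, and none bordered alpha cluster 8. Delta cells, which secrete somatostatin, were bordered by 23 cells, immune cells by 60 and acinar cells, which make digestive enzymes, by 57. Neurons and endothelial cells were bordered by none of the 1962 cells.

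Along the long axis the borders followed each other in order. The cluster was divided into 5 segments of equal cell number, numbered from the lower end upward. In segment 1, 81.4% of cells bordered beta cluster 1. Cluster 7 was bordered by 49.5% of segment 2 and 29.3% of segment 3. PP cells were bordered by 0% of segment 1, 18.1% of segment 2, 24.7% of segment 3, 18.1% of segment 4 and 8.65% of segment 5, so their border ran along the middle. Alpha cells were bordered by 0% of segments 1 and 2, 6.63% of segment 3, 62.5% of segment 4 and 95.9% of segment 5. Segment 3 had the most interior cells, 34.2%, against 20.9% in segment 1 and 2.80% in segment 5. The upper end of the cluster thus lay beside alpha cells, the lower end beside cluster 1, and the middle beside cluster 7 and PP cells.

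**Figure D3:**
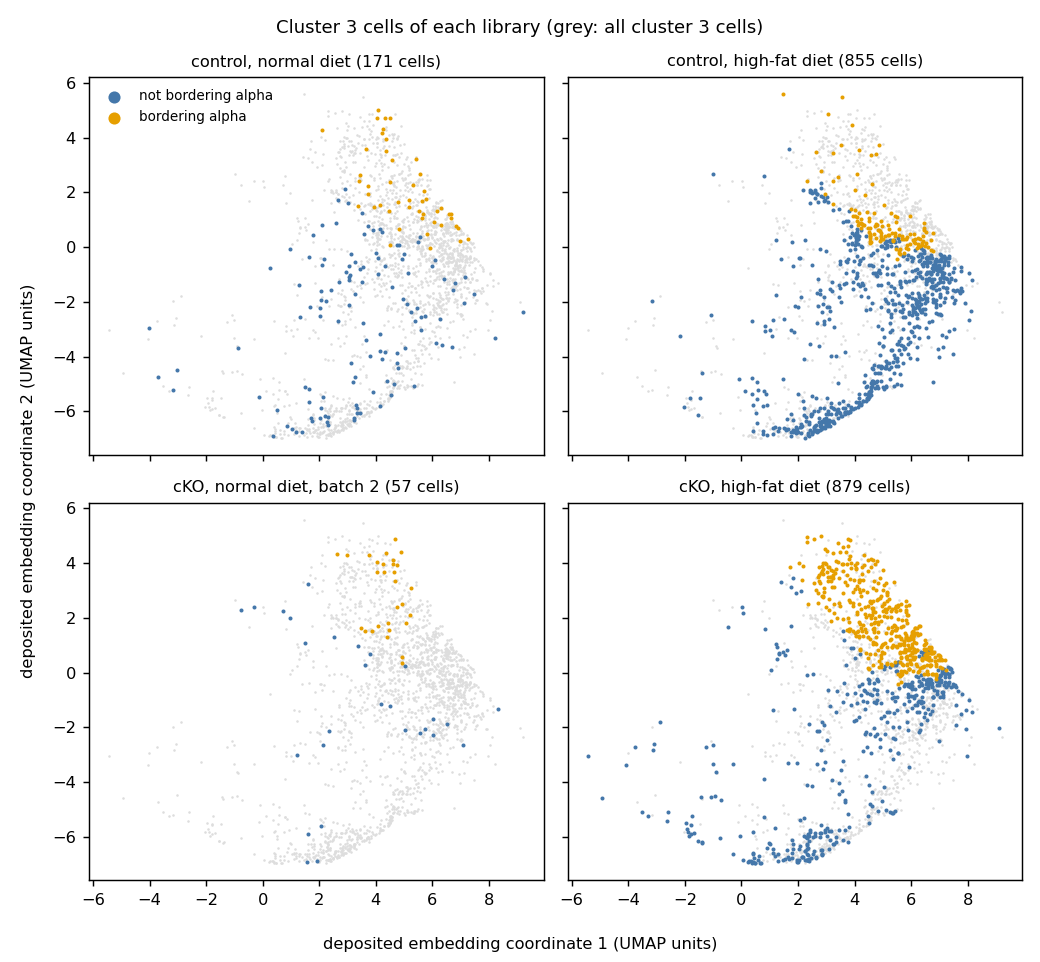
Cluster 3 cells of the 4 libraries that have any, 1 panel each, in the deposited UMAP embedding (both axes in UMAP units). Orange cells have at least 3 alpha cells among their 30 nearest cells, blue cells have fewer, and grey shows all cluster 3 cells. Orange cells number 445 of 879 in the cKO HFD library and 127 of 855 in the control HFD library.

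Cells of the 4 libraries lay in different parts of the cluster. Alpha cells were bordered by 50.6% of the cluster 3 cells of the cKO HFD library (445 of 879, 47.3 to 54.0%) and by 50.9% of those of the batch 2 cKO ND library (29 of 57, 37.3 to 64.4%). In the control libraries the shares were 14.9% on HFD (127 of 855, 12.5 to 17.4%) and 27.5% on ND (47 of 171, 20.9 to 34.8%). Both cKO libraries thus lay above both controls. Nearby cells share neighbours, so the counting intervals of all border values, which treat cells as independent, may be too narrow. The cKO ND library here was of batch 2, and the controls and the cKO HFD library of batch 1. In all positional values, genotype on ND and diet within cKO mice therefore cannot be told apart from batch. The ratio of cKO to control was 3.41 on the HFD (log2 ratio 1.77, 1.52 to 2.02) and 1.85 on ND with batch 2 (log2 ratio 0.89, 0.38 to 1.40). Within control mice the HFD share was 0.540 times the ND share (log2 ratio -0.89, -1.31 to -0.47). Within cKO mice the log2 ratio of HFD to batch 2 normal diet was -0.01 (-0.39 to 0.37). The mean of the 2 cKO libraries was 50.8% and that of the 2 controls 21.2%. The two-sided exact permutation p was 0.33, the smallest that 2 against 2 libraries can give.

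Of all 648 cells bordering alpha cells, 68.7% came from the cKO HFD library, which supplied 44.8% of cluster 3. The control HFD library supplied 19.6% of them and 43.6% of cluster 3. Few of the bordering alpha cells came from the cKO HFD library itself, where alpha cells were 5.07% of all cells (126 of 2483), the lowest share of the 4 libraries with alpha cells. Over all cluster 3 cells, 80.0% of the alpha neighbours belonged to the control ND library, which held 61.2% of all alpha cells, and 2.27% to the cKO HFD library, which held 4.01%. For cKO HFD cells alone, the control ND library supplied 80.5% of the alpha neighbours.

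The border with alpha cells therefore depends on which alpha cells are counted. With neighbours drawn from the 2 control libraries alone, a setting chosen after seeing the data, cells bordering alpha cells were 24.4% of beta cells in the cKO HFD library and 3.45% in the control HFD library. With neighbours from a cell's own library alone, 78 of 879 cKO HFD cells and 23 of 855 control HFD cells bordered alpha cells, against 64 of 171 control ND and 42 of 57 batch 2 cKO cells. The HFD genotype order held in both settings. With own-library neighbours the ND libraries lay above both HFD libraries. Alpha cells were 24.1% of all cells in the control ND, 31.2% in the batch 2 cKO and 11.6% in the control HFD library, and the part of alpha cell number in this order was not tested. Droplets holding an alpha and a beta cell together could not be looked for without counts per gene, and their part in these borders was not tested.

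From the other side, 1078 of 3146 alpha cells (34.3%) had at least 3 cluster 3 cells among their 30 nearest cells. The share was 43.9% in the control ND library (846 of 1925, 41.7 to 46.2%). It was 18.9% in the control HFD library, 19.6% in the batch 2 cKO library and 18.3% (23 of 126, 11.9 to 26.1%) in the cKO HFD library, 3 values within each other's intervals. The alpha cells that meet cluster 3 were thus mostly those of the control ND library, in which cluster 3 itself was rare.

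PP cells were bordered by smaller shares than alpha cells in 3 of the 4 libraries, and by about the same share in the control HFD library. The shares were 21.6% (37 of 171, 15.7 to 28.6%) in the control ND library and 24.6% (14 of 57, 14.1 to 37.8%) in the batch 2 cKO library. On HFD they were 15.6% (133 of 855, 13.2 to 18.2%) in the control and 10.1% (89 of 879, 8.21 to 12.3%) in the cKO library. As a share of cluster 3, the order on HFD was the reverse of that for alpha cells, with a cKO to control ratio of 0.651 (log2 ratio -0.62, -0.98 to -0.26). As a share of all beta cells it was not: cluster 3 cells bordering PP cells were 4.25% of beta cells in the cKO HFD and 2.75% in the control HFD library (ratio 1.55, 1.19 to 2.01). Between diets, the share of cluster 3 bordering PP cells had a mean of 23.1% in the 2 ND and 12.8% in the 2 HFD libraries (two-sided exact permutation p = 0.33, the smallest possible). PP cells were 4.05% and 8.23% of all cells in the ND libraries with such cells, and 2.20% (control) and 1.33% (cKO) on HFD. Among PP cells themselves, 62.0% (201 of 324) of the control ND library bordered cluster 3, 43.5% (37 of 85) in batch 2, 23.1% (34 of 147) in the control HFD and 15.2% (5 of 33) in the cKO HFD library. The part of PP cell number in the cluster 3 border was not tested.

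Alpha and PP cells together were bordered by 57.8% of cluster 3 cells in the cKO HFD library, 71.9% in batch 2, 29.8% in the control HFD library and 46.2% in the control ND library. The lowest of the 4 was the control HFD library, the one with the most cells beside cluster 7.

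**Figure D4:**
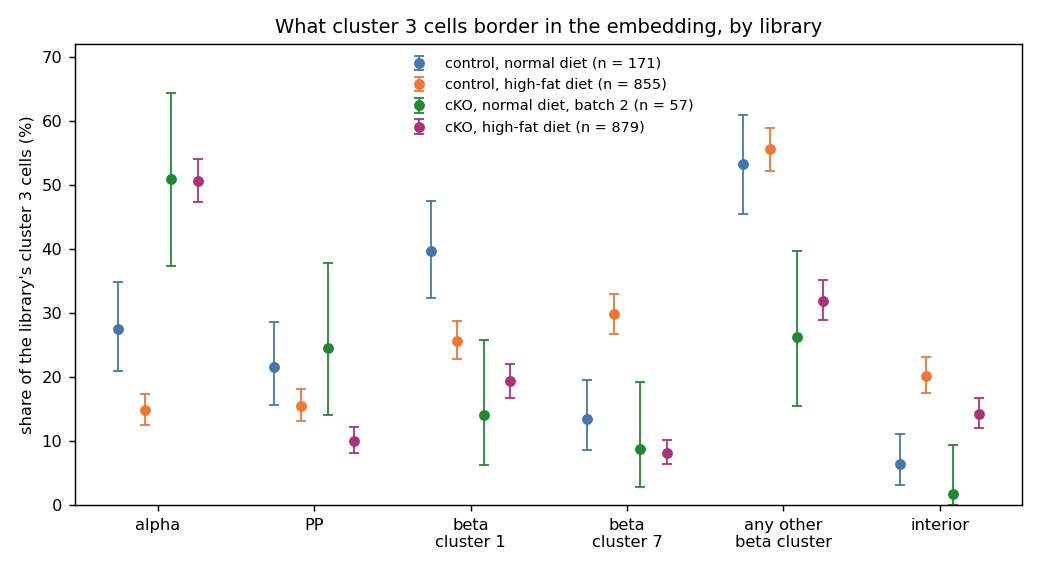
Share of each library's cluster 3 cells (vertical axis, %) that have at least 3 of their 30 nearest cells in the class named on the horizontal axis, or at least 27 in cluster 3 (interior). Points are 1 library each and lines are exact 95% binomial intervals. The 2 cKO libraries sit at 50.6% and 50.9% for alpha cells, above both controls, and at 32.0% and 26.3% for other beta clusters, below both controls.

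As a share of cluster 3, the borders with other beta cells had the opposite order of genotypes to those with alpha cells. Other beta clusters were bordered by 53.2% of control ND cells (91 of 171, 45.4 to 60.9%) and 55.6% of control HFD cells (475 of 855, 52.2 to 58.9%). In cKO mice the shares were 32.0% on HFD (281 of 879, 28.9 to 35.2%) and 26.3% in batch 2 on ND (15 of 57, 15.5 to 39.7%). The log2 ratio of cKO to control was -0.80 (-0.96 to -0.63) on HFD and -1.02 (-1.67 to -0.36) on ND with batch 2. Between diets it was 0.06 (-0.16 to 0.28) in controls and 0.28 (-0.36 to 0.92) in cKO mice with batch 2, intervals that hold either sign. With own-library neighbours these diet ratios were -0.36 (-0.59 to -0.14) and -0.63 (-1.11 to -0.15). The exact permutation p for genotype was again 0.33, the smallest possible. As a share of all beta cells the direction turned. Cluster 3 cells bordering other beta clusters were 13.4% of beta cells in the cKO HFD and 9.81% in the control HFD library (ratio 1.37, 1.19 to 1.57), and 6.36% in batch 2 and 2.07% in the control ND library (ratio 3.08, 1.81 to 5.23). Each of these 2 cKO libraries, set against the control library of its diet, thus had more cluster 3 cells per beta cell on both sides of the cluster, and a larger part of them beside alpha cells.

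The 2 main beta neighbours, clusters 1 and 7, were met by different libraries. Cluster 7 was bordered by 29.8% of cluster 3 cells in the control HFD library (255 of 855, 26.8 to 33.0%), against 13.5% (23 of 171) in the control ND, 8.19% (72 of 879) in the cKO HFD and 8.77% (5 of 57) in the batch 2 cKO library. The control HFD library supplied 71.8% of the 355 cells bordering cluster 7. Cluster 1 was bordered by 39.8% of the control ND cells (68 of 171, 32.4 to 47.5%), 25.7% of the control HFD, 19.3% of the cKO HFD and 14.0% of the batch 2 cells (8 of 57). On HFD the cKO to control ratio was 0.275 (0.215 to 0.351) for the border with cluster 7 and 0.752 (0.630 to 0.897) for that with cluster 1.

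Interior cells were 20.2% (173 of 855) of cluster 3 in the control HFD and 14.3% (126 of 879) in the cKO HFD library. In the smaller sets they were 6.43% (11 of 171) and 1.75% (1 of 57). The means were 17.3% in the 2 HFD and 4.09% in the 2 ND libraries (two-sided exact permutation p = 0.33, the smallest possible). The HFD libraries also held more cluster 3 cells, and the part of cell number in this order was not tested. With own-library neighbours alone the HFD order was reversed (log2 ratio of cKO to control 0.45, against -0.50 with all libraries).

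Dividing the cluster 3 share of beta cells by the border with alpha cells separated the comparisons. Cells bordering alpha cells were 1.07% of beta cells in the control ND library (47 of 4406, 0.785 to 1.42%) and 2.62% in the control HFD library (127 of 4841, 2.19 to 3.11%). They were 12.3% in the batch 2 cKO library (29 of 236, 8.39 to 17.2%) and 21.3% in the cKO HFD library (445 of 2093, 19.5 to 23.1%). Cells not bordering alpha cells were 2.81%, 15.04%, 11.9% and 20.7% in the same order of libraries. On HFD the cKO to control ratio was 8.10 (6.70 to 9.80) for cells bordering alpha cells and 1.38 (1.24 to 1.53) for the rest. Of the 24.3 percentage points between these libraries, 18.6 points (76.6%) lay in cells bordering alpha cells. With own-library neighbours 3.25 of the 24.3 points did so (13.4%), and with neighbours from the control libraries 21.0 points (86.2%).

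For diet in control mice the division was the other way. The HFD to ND ratio was 2.46 (1.76 to 3.43) for cells bordering alpha cells and 5.34 (4.44 to 6.44) for the rest, and 1.56 of the 13.8 percentage points (11.3%) lay in cells bordering alpha cells. With own-library neighbours the first ratio turned to 0.327 (0.203 to 0.526). On normal diet, batch 2 cKO against control, the ratios were 11.5 (7.39 to 18.0) and 4.22 (2.86 to 6.22). In cKO mice, HFD against batch 2 normal diet, they were 1.73 (1.22 to 2.46) and 1.75 (1.22 to 2.50), close to each other with neighbours from all libraries. With own-library neighbours these 2 ratios were 0.209 (0.148 to 0.297) and 6.02 (3.68 to 9.86). These intervals are counting intervals between pairs of single libraries.

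The position along the long axis restates these borders in another form, since the upper end of the axis lies beside alpha cells. The median position, in embedding units from the cluster's centre with higher values toward the alpha side, was -0.11 in the control ND, 0.00 in the control HFD, 1.98 in the batch 2 cKO and 1.86 in the cKO HFD library. On this axis the 2 controls lay near the centre and the 2 cKO libraries above it (exact permutation p = 0.33, the smallest possible). Across the short axis the medians were 0.48 (0.19 to 0.93) in the control ND, -0.80 (-0.99 to -0.55) in the control HFD, 1.39 (0.95 to 1.73) in the batch 2 cKO and 0.05 (-0.11 to 0.17) in the cKO HFD library. There the controls lay apart, and both ND libraries lay above both HFD libraries (exact permutation p for diet 0.33, the smallest possible). Segment 5, at the alpha end, held 34.5% of the cKO HFD cells (303 of 879, 31.3 to 37.7%), 42.1% of the batch 2 cells (24 of 57, 29.1 to 55.9%), 22.2% of the control ND cells (38 of 171, 16.2 to 29.2%) and 3.27% of the control HFD cells (28 of 855, 2.19 to 4.70%). Control HFD cells lay mainly in segments 1, 2 and 3, with 23.9%, 28.4% and 26.8%. The control ND cells had 2 peaks, 32.2% in segment 2 and 22.2% in segment 5, with 10.5% in segment 4. Inside segment 5 nearly all cells bordered alpha cells in every library (97.4% in the control ND, 89.3% in the control HFD, 95.8% in the batch 2 cKO and 96.4% in the cKO HFD library), while the share of cells lying there ran from 3.27% to 42.1%.

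**Figure D5:**
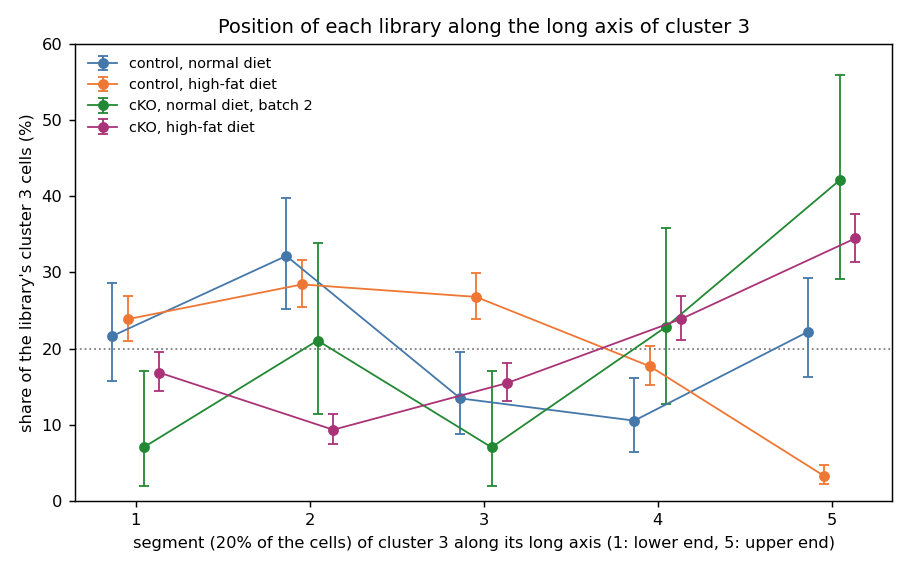
Share of each library's cluster 3 cells (vertical axis, %) in each of 5 segments of the cluster along its long axis (horizontal axis, 1 at the lower end and 5 at the upper end beside alpha cells). Points are 1 library each, lines through them join segments of a library, vertical lines are exact 95% binomial intervals, and the dotted line marks an even spread. The cKO HFD library reaches 34.5% in segment 5, where the control HFD library has 3.27%.

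Distances gave the same order of genotypes. The median distance from a cluster 3 cell to the nearest alpha cell was 0.145 embedding units in the cKO HFD and 0.187 in the batch 2 cKO library, against 1.11 in the control HFD and 1.06 in the control ND library. To the nearest cell of another beta cluster it was 0.476 and 0.771 in these cKO libraries, against 0.142 and 0.214 in the controls. To the nearest PP cell the medians were 1.22, 0.722, 1.71 and 1.21 in the same order, with HFD above normal diet in both genotypes (exact permutation p for diet 0.33, the smallest possible). By the single nearest cell outside the cluster, which needs no threshold, alpha cells came first for 54.9% of cKO HFD cells and beta cells for 33.1%. For control HFD cells these were 17.7% and 63.7%.

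Within cluster 3, cells of each HFD library lay side by side more often than library sizes gave. Among the 30 nearest cluster 3 cells, the observed over expected share of own-library cells was 1.39 in the control HFD and 1.31 in the cKO HFD library. In the smaller sets it was 1.49 in the control ND library and 3.22 in batch 2. Nearby cells share neighbours, so a counting interval does not measure the error of these ratios and none is given. The values of the smaller sets are therefore not fixed. Control HFD cells had 0.672 times the expected neighbours from the cKO HFD library, and cKO HFD cells had 0.707 times those from the control HFD library. Batch 2 cKO cells had 1.10 times the expected neighbours from the cKO HFD and 0.719 times those from the control HFD library. Cells of the cKO HFD library had 0.999 times the expected neighbours from batch 2. With each library given equal weight the own-library ratios were 1.25 in the control ND, 1.78 in the control HFD, 1.58 in the cKO HFD and 1.74 in the batch 2 cKO library. In that setting the ratio for batch 2 neighbours of cKO HFD cells was 0.657, and that for cKO HFD neighbours of batch 2 cells was 0.833, so how closely the 2 cKO libraries mix depends on the weighting.

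The 31 beta cells of the batch 1 cKO ND library lay mostly far from cluster 3, at a median distance of 3.71 embedding units from its nearest cell. Of its 9 cells in cluster 7, 2 had at least 3 cluster 3 cells among their 30 nearest cells, and the closest lay 0.0579 units from one.

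Measured in the same way with all libraries pooled, clusters 1, 5, 6 and 7 bordered alpha cells less often than cluster 3, and cluster 9 more often. In cluster 1, the main beta neighbour of cluster 3, 3 of 4360 cells (0.0688%) bordered alpha cells, and in cluster 7 none of 1434 did, which allows up to 0.209%. In clusters 5 and 6 the shares were 0.929% and 3.61%. Cluster 9 had 40.3% of its cells on an alpha border (266 of 660) and 23.2% on a PP border, against 33.0% and 13.9% of cluster 3. By library the 2 clusters differed. On HFD, 41.4% of control and 42.4% of cKO cluster 9 cells bordered alpha cells, against 14.9% and 50.6% of cluster 3. On ND these were 16.9% in the control and 52.2% in batch 2, against 27.5% and 50.9% of cluster 3. Interior cells were 81.0% of cluster 1 and 70.2% of cluster 7, against 15.9% of cluster 3 and 11.2% of cluster 9. Of all 986 beta cells bordering alpha cells, 648 (65.7%) were in cluster 3 and 266 (26.98%) in cluster 9. In the cKO HFD library 665 of 2093 beta cells (31.8%) bordered alpha cells, 445 of them in cluster 3. In the control HFD library 167 of 4841 (3.45%) did, 127 of them in cluster 3. Clusters are defined by the same data as the embedding, so these values describe the deposited partition and are not tests.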

How the data were processed

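Libraries were made from dissociated islet cells with a 10x Genomics 5′ kit, per the labels' protocols. Per the submitters' processing notes, which give no roles, the tool was Cell Ranger 7.1.0 and the build GRCm39. Cell filters, doublet treatment, integration, clustering and naming rules were not given in the sources used here. The deposited tables give each cell a library, cell type, cluster and 2 UMAP coordinates, which are scores without a fixed range, as made by the authors. No counts per gene were analysed. Tables were joined by cell identifier, and library names were matched to sample titles by genotype and diet. The numbers 1 and 2 in the names of the 2 cKO ND libraries were read as the batch numbers of the titles. That reading could not be checked. Neighbours, principal axes and connected groups were computed from the coordinates (Python 3.11.15, numpy 2.4.6, scipy 1.17.1). Shares have exact (Clopper-Pearson) 95% intervals, a count of 0 is given a limit of 3 cells, and ratios have delta-method counting intervals. Libraries with fewer than 20 cluster 3 cells entered no positional value. Most groups had 1 library, so p-values come from exact permutation over libraries and never from cells. The functions were tested on simulated data. The cluster, comparisons and alternatives (denominators, neighbour number, border fraction, source of neighbours, connected group, left-out library) were chosen with earlier results of these data known. No gene was named by value, since none was analysed here, and the beta clusters compared most closely were the 2 that supply the most neighbours. Cluster 9, neighbours from control libraries alone and borders of the largest connected group were added after the data were seen. Cell type markers (Ins1, Ins2) could not be read.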

Additional observations from a re-analysis of the deposited data

Results flagged for a closer look

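The median position of cluster 3 along its long axis moved in opposite directions with diet in the 2 genotypes. Among controls the HFD library lay 0.11 embedding units higher (toward the alpha side) than the ND library. In cKO mice the HFD minus ND (batch 2) difference was -0.13 units. The difference was not tested, since each group with cluster 3 cells held 1 library. Both shifts are small beside the counting intervals of the medians, which ran from -0.74 to 0.52 in the control ND and from 1.53 to 3.05 in the batch 2 cKO library.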

How the results depend on the processing

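Of 221 values of 59 results under other settings, 178 counted as the same, 40 moved, 3 reversed, and 208 kept their sign. A value with an interval counted as the same if it lay inside the interval of the reported value, however wide. For the permutation results an equal sign was enough. Some values thus changed sign and still count as the same. The interior ratio of batch 2 over control ND, for example, went from -1.87 to 0.26 with neighbours from control libraries. All ratios here are log2 ratios except where stated, and where no value shows a cause, the cause was not tested. The precision of every value is limited by cell number, above all by the 57 cluster 3 cells of batch 2 and the 31 beta cells of batch 1. No paired analysis was possible because the groups compared share fewer than 2 replicate numbers.

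With all cells, or with endocrine cells, in place of beta cells, the cluster 3 share ratio was 2.58 or 2.62 for control HFD over control ND, 3.68 or 3.61 for cKO HFD over the cKO ND mean, 0.37 or 0.43 for that mean over control ND, and 1.46 or 1.42 for cKO HFD over control HFD. Without cluster 9 among the beta cells the last was 1.61. As odds ratios, cKO HFD over cKO ND was 2.40 and cKO HFD over control HFD 1.76. Leaving out batch 1, cKO HFD over cKO ND was 0.80 and cKO ND over control ND was 2.64. Leaving out batch 2, with batch 1 at its 3-cell limit, they were 2.12 and 1.32. Batch 1 held no cluster 3 cell, so 2.12 is a lower and 1.32 an upper limit under the 3-cell rule only. The exact upper limit of its share, 11.2%, is higher than that rule gives. The counting intervals of the 2 ratios ran from 0.56 to 3.67 and from -0.25 to 2.88. The sign of cKO ND over control ND is thus not fixed by batch 1.

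For cKO HFD over control HFD, 15 neighbours gave 2.04 for the border with alpha cells and 1.15 for that with alpha or PP cells. A border fraction of 0.2 gave 2.49 and 1.32 for these, and 3.74 and 0.62 for the shares of beta cells bordering and not bordering alpha cells. For control HFD over control ND it gave -1.71 for the alpha border, -1.10 for alpha or PP cells and 0.47 for the share bordering alpha cells. Neighbours from control libraries gave 0.31 for the share not bordering alpha cells, cKO HFD over control HFD.

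Neighbours from the own library alone moved the most values. For cKO HFD over control HFD they gave 0.57 (alpha or PP), -1.59 (PP), 0.45 (interior, reversed) and 1.15 (share not bordering alpha cells). For control HFD over control ND they gave -3.80 (alpha), -2.32 (PP), -2.91 (alpha or PP), -0.36 (other beta clusters), -1.61 (share bordering alpha cells, reversed) and 2.82 (share not bordering). For cKO HFD over batch 2 they gave -3.05 (alpha), -4.90 (PP), -3.11 (alpha or PP), -0.63 (other beta clusters), -2.26 (share bordering, reversed) and 2.59 (share not bordering). For batch 2 over control ND they gave 0.98 (PP) and 1.39 (share not bordering). With neighbours weighted by library the own-library neighbour ratio, not on a log scale, was 1.78 in the control HFD and 1.58 in the cKO HFD library.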
